A study of Mus musculus with 7 samples.

Results

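The ETS family is a group of transcription factors that share a winged helix-turn-helix DNA-binding domain, and 10 of its mouse genes are described here in the suprachiasmatic nucleus (SCN), the seat of the central circadian clock in the hypothalamus. The genes are Ets1, Ets2, Fli1, Elk1, Elk3, Elk4, Etv1, Etv4, Etv5 and Gabpa, taken by symbol from a table of 55487 genes, and each was found once. The family was chosen by a measured value: Ets2 was among the genes that differed between advanced glaucoma and control in these same libraries, so the fold changes between the groups are given as a description and support nothing further. The other 9 were taken as relatives of Ets2, and 16 further genes of the family are given for comparison.

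The control mice were of the strain DBA/2J-Gpnmb+SjJ, which carries the functional allele of the melanosomal glycoprotein gene Gpnmb. The advanced glaucoma mice were DBA2J mice, whose spontaneous Gpnmb mutation leads to high intraocular pressure and damage to the retina. Both groups are thus of DBA/2J background, both were kept in a 12:12 light and dark cycle, and both are labelled WT in the genotype field. Disease and Gpnmb allele differ together between the groups, so their parts in any difference cannot be told apart. There were 4 control libraries, named scn_cont_565, scn_cont_567, scn_cont_568 and scn_cont_570, and 3 advanced glaucoma libraries, named scn_glauc_152, scn_glauc_153 and scn_glauc_154. The number of mice per group matches the number of libraries, but no label says outright that each library is 1 mouse, so the p-values measure the spread between these libraries. Age, sex and time of death are not given in the sources used here. The libraries hold 2174456 to 5285093 counts, each from the 3′ end of a transcript. The shallowest, scn_cont_565, also had the highest share of mitochondrial counts, at 19.5% against 12.6 to 16.5% in the other 6.

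ETS proteins bind DNA around the core GGAA and many of them are phosphorylated by the kinase ERK in response to growth factors. Ets1 and Ets2 are activated in this way. Elk1, Elk3 and Elk4 are the ternary complex factors that sit with serum response factor (SRF) on genes such as Fos and Egr1. Etv1, Etv4 and Etv5 form the PEA3 group, whose transcription follows FGF and ERK signals and is repressed by Capicua. Fli1, like Ets1, is known from blood and endothelial cells, and Gabpa pairs with GABPB proteins on promoters of nuclear genes for mitochondria.

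The DNA around a RefSeq start is printed for the gene that differed, Ets2, and for Gabpa, a relative on the same chromosome. It shows how the ETS core itself is placed in both. These are RefSeq sequences of build GRCm38.p6, the assembly that mm10 names. Each spans 250 bases before to 50 bases after an annotated start, Ets2 at chr16:95702157-95702456 and Gabpa at chr16:84834874-84835173, both on the plus strand. Capitals mark GGAA or its complement TTCC, and the longer ETS site where there is one.
Ets2: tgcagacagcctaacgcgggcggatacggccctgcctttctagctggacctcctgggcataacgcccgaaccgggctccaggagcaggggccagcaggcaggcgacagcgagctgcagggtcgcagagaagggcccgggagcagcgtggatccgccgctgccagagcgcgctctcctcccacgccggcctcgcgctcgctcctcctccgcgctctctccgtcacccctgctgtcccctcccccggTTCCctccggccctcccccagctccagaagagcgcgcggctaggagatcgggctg
Gabpa: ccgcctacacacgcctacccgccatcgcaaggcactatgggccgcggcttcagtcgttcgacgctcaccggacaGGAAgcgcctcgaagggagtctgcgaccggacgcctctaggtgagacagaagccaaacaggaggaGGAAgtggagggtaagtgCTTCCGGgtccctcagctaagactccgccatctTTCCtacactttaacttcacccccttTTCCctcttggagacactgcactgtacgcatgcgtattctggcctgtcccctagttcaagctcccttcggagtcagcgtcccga
The Ets2 sequence holds a single GGAA core, read on the minus strand, whose first base lies 5 bases before the start. The Gabpa sequence holds 5, of which 1 lies in the longer ETS site CCGGAAG, read on the minus strand as CTTCCGG. Over all 32851 promoter sequences in the table the median was 3 cores, and 96.0% held at least 1, so the core alone is common. The Ets2 sequence is rich in G and C, at 71.7% against a median of 52.7% for all promoters, and it holds 30 CpG pairs. The RefSeq start of Ets2 lies 332 bases inside the start that GENCODE gives for the gene, 95702075. The whole Ets2 sequence printed thus lies within the GENCODE gene and not in front of it. For Gabpa the GENCODE start, 84834925, falls within the printed sequence, most of which lies inside the gene.

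Both strands of the promoters were searched for 6 longer motifs: the ETS site CCGGAAG, the clock E-box CACGTG, the ROR half-site AGGTCA, the cAMP response element TGACGTCA, the AP-1 site TGANTCA and the D-box TTATGTAA. Of all promoters, 8.86% held the ETS site, 7.15% the E-box, 16.26% the ROR half-site, 1.79% the cAMP response element, 7.81% the AP-1 site and 0.94% the D-box. The ETS site can overlap the GGAA core, which it contains. Promoter sequences were matched for 7 of the 10 genes, some with several starts, 11 in all. Among them the ETS site was found at Gabpa and at the first start of Elk4, and the E-box at Elk1. None of the 6 was found in the Ets2 window, which says only that these letters are not in it.

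Ets2 was higher in the advanced glaucoma libraries than in the control libraries. Its gene (ENSMUSG00000022895, chromosome 16, 95702075 to 95721051, mm10) gave counts of 146, 272, 319 and 339 in the control libraries and of 512, 629 and 451 in the glaucoma libraries, where the libraries are taken here and further on in the order of their numbers above. Brought to a common library total with TMM factors, which correct for depth and composition, and written as CPM, these were 72.5, 83.3, 79.1 and 61.1 for the controls. The glaucoma libraries stood at 101, 136 and 125 CPM. Every glaucoma library lay above every control library, and the narrowest gap was between scn_cont_567 and scn_glauc_152.

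Ets2 averaged 74.0 ± 9.68 CPM over the controls (SD, n = 4) and 120 ± 17.7 CPM over the glaucoma libraries (SD, n = 3). That is a 1.63-fold difference, a log2 fold change of 0.71 with a standard error (SE) of 0.12 and a 95% interval of 0.46 to 0.96. The edgeR quasi-likelihood fit over all 14020 tested genes gave it an adjusted p of 0.00341 (Benjamini-Hochberg), and it ranked 19 by p. Without scn_cont_565 the log2 fold change was 0.71 (adjusted p = 0.00652). In the fit with all 7 libraries, 66 genes passed the threshold of 0.05, or 0.471% of those tested, and 13 of them were higher in advanced glaucoma, or 0.0927%, and 53 were lower, or 0.378%. The count of 66 was 28 without scn_glauc_154, 33 without scn_cont_570, 202 with no filter on low counts and 16 with the mean of the myelin genes as a covariate, and the higher calls among them numbered 4, 5, 94 and 1. The gene just inside that threshold was Nptx1 (adjusted p = 0.0487, edgeR) and the one just outside was Nr1d1 (adjusted p = 0.0566). In bulk tissue, more cells that express a gene and more RNA per cell cannot be told apart. No annotated gene overlaps Ets2, so none of its counts are shared with a neighbour by position.

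**Figure D1:**
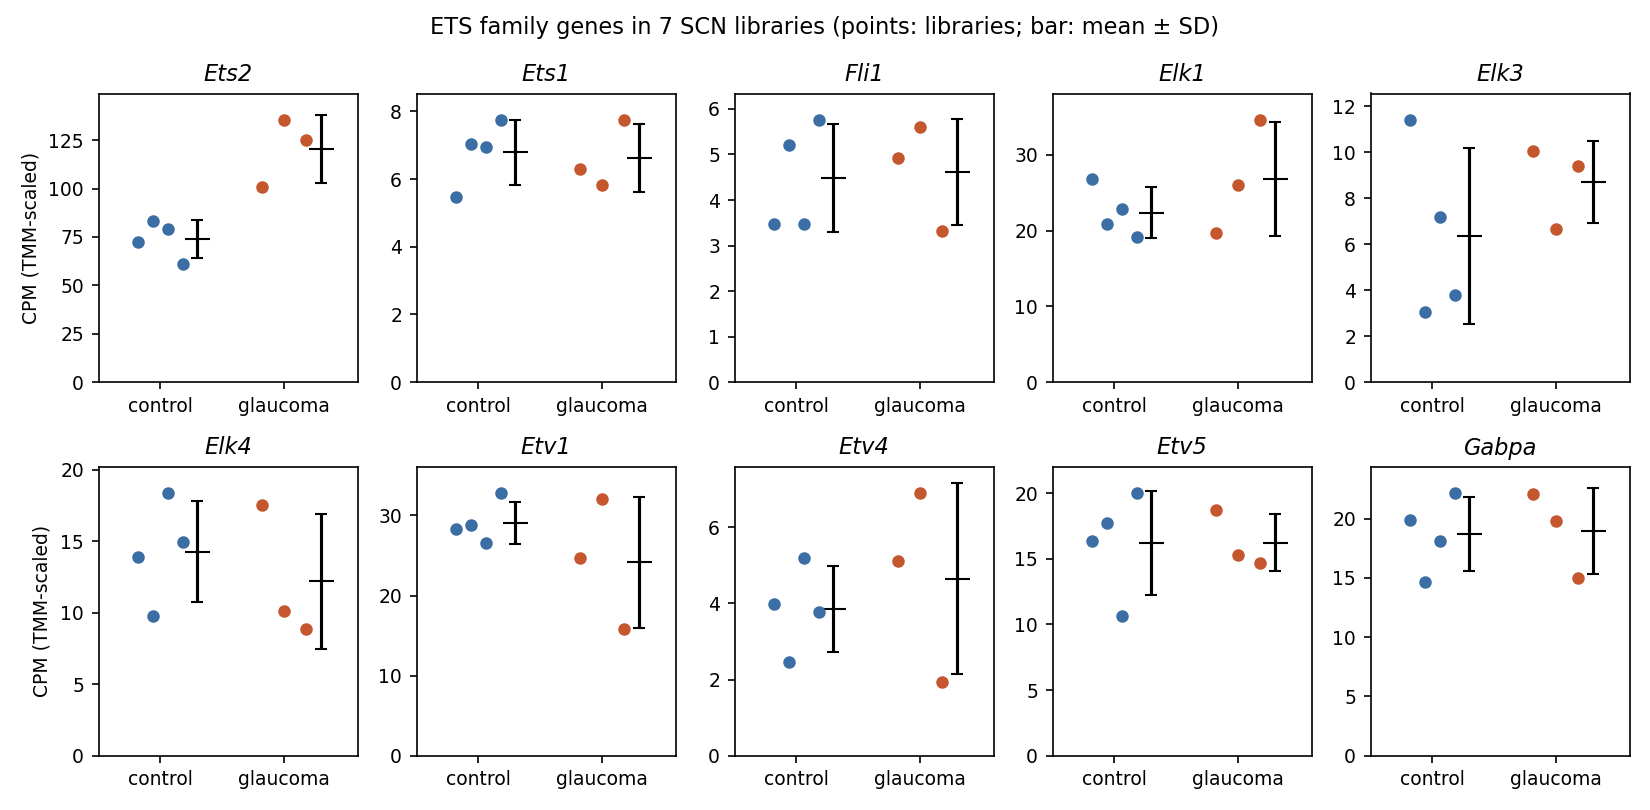
Level of each of the 10 ETS genes in CPM, on axes that start at 0, with 1 point per library (4 control in blue, 3 advanced glaucoma in orange) and the group mean ± SD beside them. The Ets2 points run from 61.1 to 83.3 CPM in control and from 101 to 136 CPM in advanced glaucoma, while the groups overlap for each of the other 9 genes.

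Ets2 was the 1 gene of the 10 that passed. All 10 had enough counts to be tested. The log2 fold changes of the other 9 ran from -0.26 to 0.55 with a median of 0.02, against a median of -0.01 over all tested genes. Of these, 6 were positive and 3 negative, none passed in the edgeR fit (adjusted p of 0.782 to 0.998), and their smallest unadjusted p was 0.151. The groups overlapped for all 9, whereas they did not overlap for 8.02% of all tested genes, with 4.12% higher and 3.91% lower in advanced glaucoma. Summed over the 9, the controls held 122 ± 9.72 CPM (SD, n = 4) and the glaucoma libraries 123 ± 10.05 CPM (SD, n = 3).

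Ets1 is the closest relative of Ets2 and lies on chromosome 9 (32636221 to 32757820). Its level was 5.46, 7.04, 6.94 and 7.74 CPM over the controls, and 6.31, 5.82 and 7.75 CPM over the glaucoma libraries. The glaucoma libraries fell inside the control range but for scn_glauc_154, which was level with the highest control library. The log2 fold change was -0.07 (95% interval -0.71 to 0.57, adjusted p = 0.989 by edgeR), on 11 to 43 counts per library. The interval stops short of the Ets2 estimate of 0.71 but overlaps the Ets2 interval of 0.46 to 0.96.

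Fli1 lies beside Ets1 on chromosome 9 (32422204 to 32542861), on the opposite strand with a gap of 93.4 kb. Its level was 3.47, 5.20, 3.47 and 5.76 CPM over the controls, and 4.93, 5.60 and 3.32 CPM over the glaucoma libraries. The groups covered nearly the same range, with means of 4.48 ± 1.18 and 4.62 ± 1.17 CPM (SD, n = 4 and n = 3). With 7 to 32 counts per library its 95% interval ran from -0.77 to 0.82 and reaches the Ets2 estimate. Gene models with no known product lie inside Fli1 on the same strand, of which Gm37474, Gm38292 and Gm37082 had 66, 14 and 9 counts over all libraries, beside 133 for Fli1, and how reads were split between them is not known.

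None of the ternary complex factors passed, and their estimates lay on both sides of 0. Elk1, which activates SRF target genes once ERK phosphorylates it, was at 26.8, 20.8, 22.8 and 19.1 CPM over the controls and 19.7, 26.1 and 34.6 CPM over the glaucoma libraries. The highest value was in scn_glauc_154, and the other glaucoma libraries lay within the control range. Its log2 fold change was 0.27 (95% interval -0.14 to 0.67). Elk1 overlaps Uxt on the same strand of the X chromosome, and reads in the shared stretch cannot be assigned by position.

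Elk3, a repressor until it is phosphorylated, had the largest estimate after Ets2 and the widest scatter over the control libraries. It was at 11.4, 3.06, 7.19 and 3.78 CPM over the controls and 10.05, 6.68 and 9.42 CPM over the glaucoma libraries. The control libraries alone spanned the whole range of the glaucoma libraries, since scn_cont_565 held the highest value of all 7. Its log2 fold change was 0.55 (95% interval -0.21 to 1.31), so an increase as large as that of Ets2 lies within its interval. Without scn_cont_565 it was 0.89 (adjusted p = 0.424 by edgeR). Elk4, the remaining ternary complex factor, was at 13.9, 9.79, 18.3 and 14.9 CPM over the controls and 17.5, 10.1 and 8.86 CPM over the glaucoma libraries. Its groups overlapped, with a log2 fold change of -0.22 (95% interval -0.77 to 0.32). Elk3 overlaps Cdk17 and Elk4 overlaps Mfsd4a, each on the opposite strand, and whether the counting used strand is not known.

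None of the PEA3 genes passed. Etv1, a factor also used in neuronal differentiation, was at 28.3, 28.8, 26.5 and 32.8 CPM in control, the tightest of the 10 genes there. In advanced glaucoma it was at 24.6, 32.1 and 15.8 CPM, so that scn_glauc_154 held the lowest level of the 7 and scn_glauc_153 lay within the control range. The log2 fold change was -0.26 (95% interval -0.66 to 0.14). Library scn_glauc_154 was also the lowest of the 7 for Etv4, at 1.94 CPM against 2.45 to 5.20 CPM in control, where scn_glauc_152 and scn_glauc_153 had 5.12 and 6.89 CPM. Etv4 rested on 7 to 32 counts per library, and its interval of -0.60 to 1.18 is the widest of the 10. Etv5 was at 16.4, 17.8, 10.7 and 20.0 CPM over the controls and 18.7, 15.3 and 14.7 CPM over the glaucoma libraries, with a log2 fold change of 0.00 (95% interval -0.46 to 0.47).

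Gabpa, on chromosome 16 like Ets2 but 10.84 Mb away, was at 19.9, 14.7, 18.1 and 22.2 CPM over the controls and 22.1, 19.8 and 15.0 CPM over the glaucoma libraries. The groups covered the same range, and the log2 fold change was 0.02 (95% interval -0.40 to 0.44). Its first bases overlap Atp5j on the opposite strand, an abundant gene with 23603 counts in all.

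**Figure D2:**
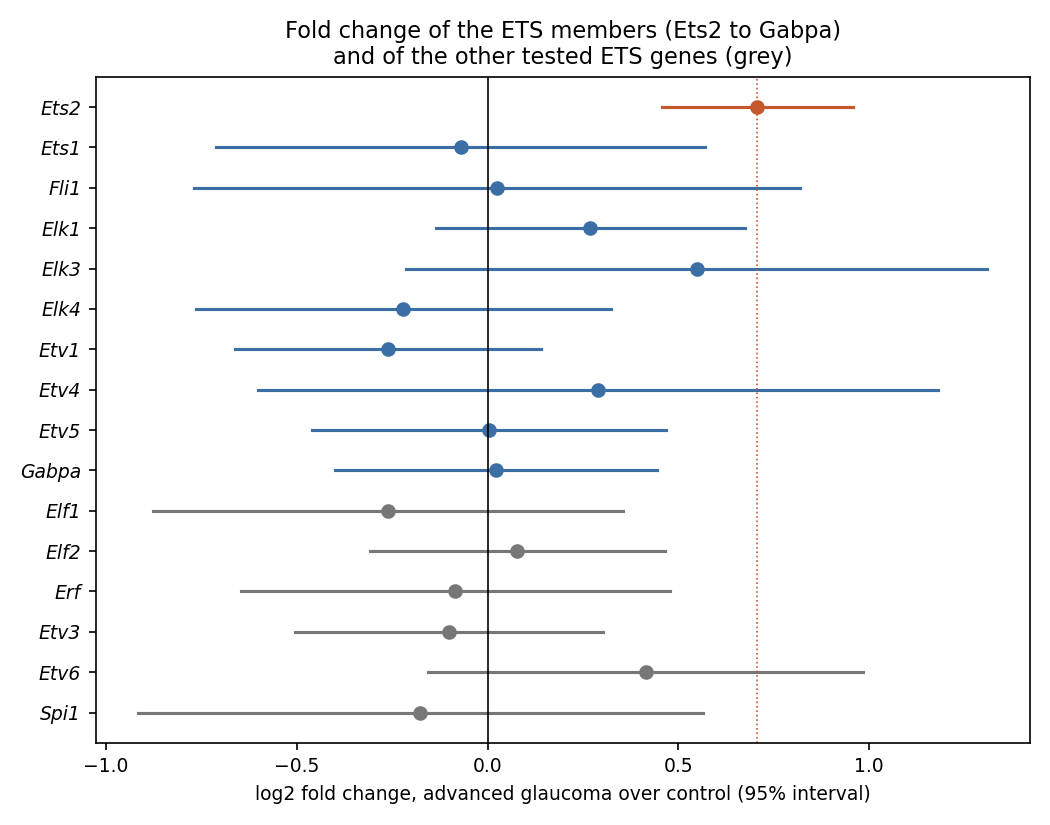
Log2 fold change of advanced glaucoma over control with its 95% interval from the edgeR fit, for the 10 ETS genes (Ets2 in orange, the others in blue) and for the 6 other tested ETS genes in grey. The dotted line marks the Ets2 estimate of 0.71, which the intervals of Fli1, Elk3, Etv4 and Etv6 reach.

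The counts of the relatives limit what can be said of them. The 95% intervals of 6 of the 9 lie below the Ets2 estimate (Ets1, Elk1, Elk4, Etv1, Etv5 and Gabpa). Those of the other 3 (Fli1, Elk3 and Etv4) include it. That estimate has its own interval of 0.46 to 0.96, and it is the value that chose the family. The intervals of Ets1, Elk1 and Etv5 overlap the Ets2 interval, while those of Elk4, Etv1 and Gabpa lie below it. Whether any relative differed from Ets2 was not tested. For Ets2 the coefficient of variation over the control libraries was 13.1%, where counting alone gives 6.44%. Elk3 varied by 60.1%, against 23.7% from counting. For Ets1, Fli1, Etv1 and Etv4 the spread between control libraries was no larger than that from counting: 14.1% against 22.0% for Ets1, 26.4% against 27.6% for Fli1, 9.08% against 10.4% for Etv1 and 29.3% against 29.4% for Etv4. These counting figures cover counting error only, since it is not known whether reads were collapsed to molecules.

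**Figure D3:**
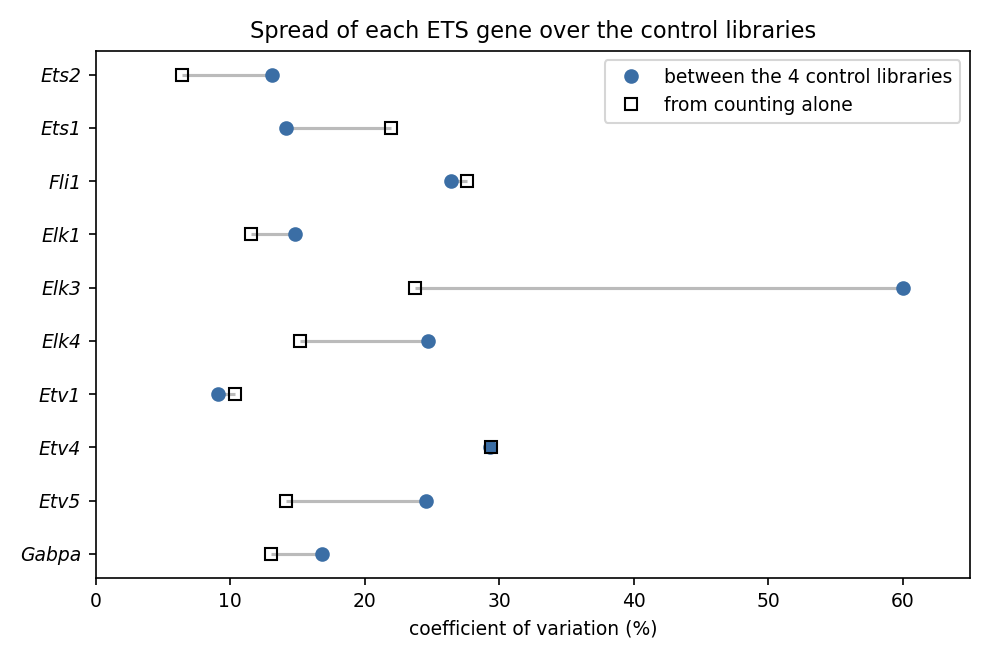
Coefficient of variation in percent over the 4 control libraries for each gene (filled circles) and the value that counting error alone would give at these counts (open squares). Ets2 lies at 13.1% against 6.44% and Elk3 at 60.1% against 23.7%, while both marks lie close together for Fli1, Etv1 and Etv4.

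The balance between Ets2 and its relatives was also read within each library, where no scaling between libraries enters. Ets2 took 35.9, 43.2, 39.9 and 31.95% of the counts of the 10 genes over the controls. It took 43.9, 51.3 and 52.9% over the glaucoma libraries. The groups did not overlap, but scn_cont_567 (95% exact interval 39.3 to 47.1%) and scn_glauc_152 (41.0 to 46.8%) differed by less than their counting intervals. The means were 37.7 ± 4.87% and 49.4 ± 4.82% (SD, n = 4 and n = 3), a gap of 11.6 percentage points. This share contains the Ets2 difference that chose the family, so the gap is a description and no separate evidence.

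Against single relatives, Ets2 had 7.88 to 13.3 counts for each Ets1 count in control and 16.0 to 23.3 in advanced glaucoma, so the ranges were separate. They were also separate against Etv1, at 1.86 to 2.98 and 4.10 to 7.91 counts. Against each of the other 7 relatives the ranges overlapped. These ratios compare counts of 3′ ends and not numbers of molecules, and they contain the Ets2 difference that chose the family.

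**Figure D4:**
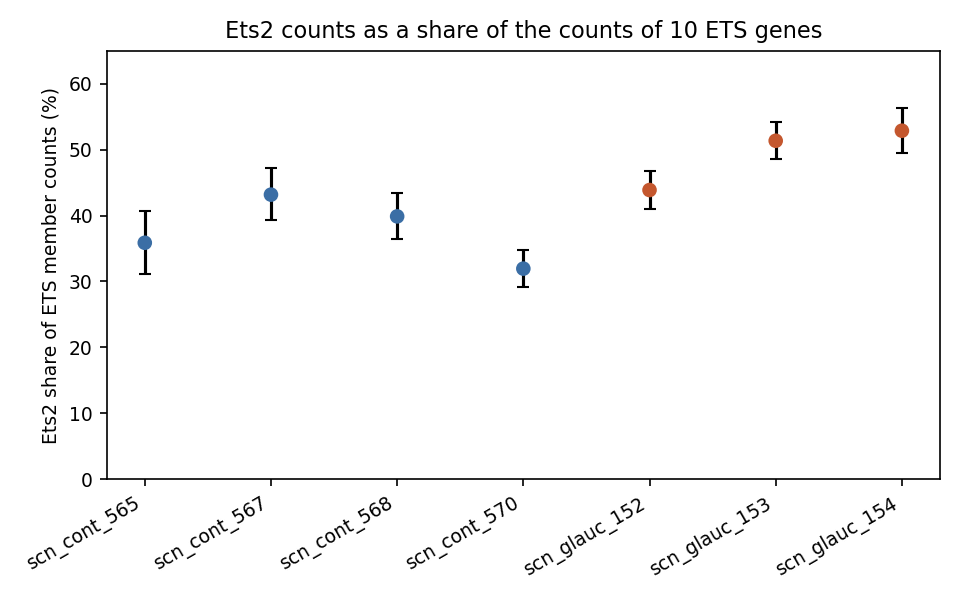
Ets2 counts as a percentage of the counts of the 10 ETS genes in each library, with 95% exact binomial intervals that cover counting error only (control in blue, advanced glaucoma in orange). The control libraries run from 31.95 to 43.2% and the advanced glaucoma libraries from 43.9 to 52.9%.

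Of 16 further mouse ETS genes, 6 had enough counts to be tested (Elf1, Elf2, Erf, Etv3, Etv6 and Spi1), and 0 passed in the edgeR fit, 0 had an unadjusted p under 0.05 and 0 passed in DESeq2 or limma-voom. Their median log2 fold change was -0.09. Etv6, a repressor of the family, was at 6.45, 8.26, 7.93 and 7.92 CPM over the controls and 9.06, 12.9 and 8.86 CPM over the glaucoma libraries, and its groups did not overlap (log2 fold change 0.41, adjusted p = 0.782 by edgeR). Elf1 was at -0.26 on the log2 scale (adjusted p = 0.905). Spi1, which encodes the microglial factor PU.1, was at 5.59 ± 2.04 and 5.13 ± 0.400 CPM (SD, n = 4 and n = 3). Erg, an endothelial factor and the neighbour of Ets2 at 115.5 kb, had 2 to 10 counts per library and was not tested.

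No tested gene around Ets2 passed. Within 500 kb on either side, 6 other genes were tested, and their log2 fold changes had a median of -0.03. All of them lay on the side of higher coordinates, 258.9 to 479.4 kb from Ets2, so the other side and nearer positions were not covered. The lowest was that of Brwd1 at -0.18. The highest was that of Sh3bgr at 1.01 (adjusted p = 0.587 by edgeR), on group means of 2.52 and 4.63 CPM.

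Of the genes that act with ETS factors or are known targets of them, 1 passed. Over 7 lists, the other ETS genes included, 74 of 90 genes were tested, 0 were higher and 1 was lower, which is 1.35% of them against 0.471% of all genes tested. The lower gene was Fos, the immediate early gene that SRF and its ternary complex factors drive. It was at 41.2, 39.5, 43.6 and 44.5 CPM over the controls and 24.04, 19.6 and 21.0 CPM over the glaucoma libraries, with no overlap (log2 fold change -0.97, SE 0.16, adjusted p = 0.00160 by edgeR). With the myelin mean as a covariate the estimate was -0.98, but the call was lost (adjusted p = 0.136 by edgeR). Fos was lower while Srf and the 3 ternary complex factors did not pass in either direction. Srf was at 4.38 ± 2.95 and 6.77 ± 1.78 CPM (SD, n = 4 and n = 3), and Egr1, another target of that complex, at 27.2 ± 4.28 and 22.7 ± 1.98 CPM. The list of SRF targets had 10 tested members, of which 7 were negative, with a median log2 fold change of -0.26.

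No gene of the Ras and ERK pathway, whose kinases phosphorylate ETS factors, passed. All 16 listed genes were tested, and the log2 fold changes ran from -0.19 to 0.24. Map2k1, the ERK kinase MEK1, was at 200 to 234 CPM in control and 250 to 263 CPM in the glaucoma libraries (log2 fold change 0.24, adjusted p = 0.421 by edgeR), and Mapk3, which encodes ERK1, one of 0.21 (adjusted p = 0.699). Partners and regulators gave 0 calls of 15 tested, with a median of 0.10, and Mrtfb, an SRF coactivator, had the smallest p there (log2 fold change 0.27, adjusted p = 0.471), followed by Cop1, a ubiquitin ligase for PEA3 proteins (0.21, adjusted p = 0.835). Cic, which encodes Capicua, was at 76.3 and 76.5 CPM. Transcript levels say nothing of phosphorylation, which these data do not measure.

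Genes listed as induced by PEA3 factors and ERK, among them feedback genes of that pathway, gave 0 calls of 11 tested, with 8 negative. Spry4, an inhibitor of receptor tyrosine kinase signals, was at 11.6 ± 1.34 and 6.89 ± 2.85 CPM (SD, n = 4 and n = 3; log2 fold change -0.73, adjusted p = 0.459 by edgeR), and Ccnd1, cyclin D1, one of -0.30 (adjusted p = 0.573). Vascular targets of ETS factors gave 0 calls of 8 tested, with a median of -0.16. Kdr and Eng, an endothelial receptor and co-receptor, had the smallest p of that list, at -0.46 (adjusted p = 0.676) and -0.29 (adjusted p = 0.789). The 8 mitochondrial genes listed as GABP targets gave 0 calls and a median of 0.01, led by Cox7c at 0.21 (adjusted p = 0.884) and Atp5f1b at -0.07 (adjusted p = 0.920).

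The 5 genes whose pattern was most like that of Ets2 were Htr2a, Slc35f3, Doc2b, Plxdc1 and Nptx1. Likeness was the root mean square difference of log2 CPM over the 7 libraries, each gene centred on its own mean, among 12762 genes, and it includes the difference between the groups. Htr2a, a serotonin receptor gene, was the nearest at 0.0786 on the log2 scale, with group means of 9.83 and 16.4 CPM (adjusted p = 0.257 by edgeR). The others lay between 0.145 and 0.150. Of the 5, Nptx1, a neuronal pentraxin of synapses, passed the test (log2 fold change 0.62). The nearest ETS gene to Ets2 was Elk1, at 0.318.

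Markers of several cell types and of neighbouring nuclei differed in the same libraries. All 15 listed SCN marker genes were negative and 11 passed as lower, where 0.378% of all tested genes did. The lists were chosen with earlier results of these data known. Set against the control average, the SCN list's average log2 CPM was -2.23 to -1.91 in advanced glaucoma and -0.26 to 0.18 in control. On the same scale, markers of neighbouring hypothalamic nuclei stood at 0.67 to 1.56 against -0.85 to 0.75. Of these 10, 8 were positive and 2 negative, and Nkx2-1 passed as higher, where 0.0927% of all tested genes did. The groups also did not overlap for Pmch, Bsx and Ghrh (log2 fold changes of 5.17, 2.80 and 1.91), which did not pass. Over all tested genes, 4.12% were higher and 3.91% lower in advanced glaucoma without overlap. Pmch ran from 11.9 to 25.3 CPM in control and from 202 to 1331 CPM in advanced glaucoma. Myelin genes were negative in 15 of 15 tested, with the lipocalin gene Apod passing, and the list summed to 4539 to 5828 CPM over the controls and 2543 to 5150 CPM over the glaucoma libraries. Astrocyte genes were negative in 8 of 10, with the water channel gene Aqp4 passing, and summed to 3583 to 4112 and 3434 to 3578 CPM. Set against the control average, the astrocyte list's average log2 CPM was -0.13 to 0.10 in control and -0.36 to -0.27 in advanced glaucoma. The lowest estimate of that list was that of Gfap, at -1.81, without overlap but not passing (adjusted p = 0.366 by edgeR). The part of these shifts in the Ets2 difference was not tested. With the myelin mean as a covariate, the Ets2 estimate was 0.72, as large as without it, but the call was lost (adjusted p = 0.115 by edgeR).

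Ets1, Fli1 and Erg are known from endothelial cells, among others. The 12 listed endothelial markers summed to 337 to 451 CPM in control and 328 to 366 CPM in advanced glaucoma, with 0 passing. Their log2 fold changes ran from -0.80 (Pecam1) to 0.21 (Abcb1a), with 5 positive and 7 negative. The 12 microglial markers summed to 498 to 636 and 492 to 539 CPM, with 0 passing, and precursors of oligodendrocytes, at 140 to 161 and 155 to 190 CPM over 7 markers, gave 0 calls too. The 11 neuronal markers summed to 4419 to 4853 CPM in control and 4006 to 4724 CPM in advanced glaucoma, with 0 passing, but the sum covers members with estimates of both signs. The GABA neuron genes Gad1, Gad2 and Slc32a1 had log2 fold changes of -0.61, -0.76 and -0.85, and the groups did not overlap for Gad2 and Slc32a1. Slc17a6, a glutamate neuron gene, had one of 0.60. Of these markers and those of myelin and astrocytes, none was at 0 over all libraries. Their part in the values of the ETS genes was not tested.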

How the data were processed

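Total RNA of SCN microdissections was turned into 3′ barcoded BRB-seq libraries with the MERCURIUS kit, per the labels' protocols. The authors deposited raw counts, whole numbers for each gene. STAR, HTSeq, featureCounts, DESeq2 and mm10 are named in the submitters' processing notes. Their roles and versions, the annotation, the strand setting and the handling of molecular identifiers are not given in the sources used here. A 3′ count does not scale with gene length. Levels are compared between libraries. The share and ratios of Ets2 set genes against each other by counts of 3′ ends and not by numbers of molecules.

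Symbols came from a gene name table, which covered 55141 of 55487 identifiers (the other 346 held 0.0291% of counts). Positions came from GENCODE M21 on GRCm38, the assembly of mm10. In R 4.3.3, edgeR 4.0.16 was run with filterByExpr by group, TMM scaling and the robust quasi-likelihood test, fitted on group alone. The Benjamini-Hochberg adjustment ran over 14020 genes, with a threshold of 0.05. The SE was obtained by dividing the absolute log2 fold change by the square root of F. Log2 CPM used a prior count of 2. The fit was tested on simulated data. Library numbers are not shared between groups.

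Alternatives were RLE or library size scaling, no filter, a mean of at least 10 CPM, DESeq2 1.42.0, limma-voom 3.58.1 with sample weights, the myelin mean as a covariate, and leaving out each library.

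The genes named were all 10 members, the 5 most like Ets2, and genes of the lists of other ETS genes, partners, pathway members and targets. From each of those lists they were the genes that passed or, in a list without any, the 2 of smallest p. The marker lists of cell types and nuclei were given by counts and ranges. Their genes that passed were named, except in the SCN list, whose called genes are counted but not named. Spi1, Erg, Srf, Egr1, Cic, Nr1d1, Brwd1, Sh3bgr, Pmch, Bsx, Ghrh, Gfap, Syt1, Gad1, Gad2, Slc32a1, Slc17a6 and the models inside Fli1 were added after their values were seen. The members and all lists were chosen with earlier results of these data known.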

Additional observations from a re-analysis of the deposited data

How the results depend on the processing

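Ets2 was higher in advanced glaucoma in all 14 alternatives, with log2 fold changes of 0.61 to 0.82, and it passed in 13. The exception was the myelin mean as a covariate, which left 0 of the 10 members, 0 pathway genes and 16 of all genes past the threshold. Fos lost its call there too (log2 fold change -0.98, adjusted p = 0.136 by edgeR) and kept it in the other 13. Leaving out each library in turn gave Ets2 adjusted p of up to 0.0404 and 28 to 93 called genes over all, with 33 without scn_cont_570 and 28 without scn_glauc_154. With no filter on low counts, 202 genes passed, 53.5% of them lower against 80.3% of the 66 in the fit reported, and DESeq2 gave 99, of which 72.7% were lower. The gap in the Ets2 share of member counts ran from 9.72 to 14.4 percentage points over the libraries left out.

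None of the other 9 members passed in any alternative. Some estimates changed sign: Fli1 with limma-voom (-0.0032) and Etv5 with library size scaling (-0.00079), both close to 0, and Etv1 with the myelin covariate (0.18, from -0.26). With that covariate Etv4 stood at 1.12, from 0.29. With a library left out, Ets1 ran from -0.19 to 0.015, Fli1 from -0.13 to 0.20, Etv4 from -0.086 to 0.63, Etv5 from -0.16 to 0.15 and Gabpa from -0.10 to 0.16. Without a change of sign, Elk1 ran from 0.05 to 0.45, Elk3 from 0.33 to 0.89, Elk4 from -0.59 to -0.05 and Etv1 from -0.51 to -0.04. The cause was not tested. With a mean of at least 10 CPM, Ets1, Fli1, Elk3 and Etv4 were not tested.

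No paired analysis was possible because the groups share no library number. Depth limits Fli1, Elk3, Etv4 and Ets1 most, with as few as 7 to 11 counts in a library.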
